A study of Bos taurus with 6 samples.

Results

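The peroxisomal genes described here are 36 genes of bovine mammary epithelial cells (bMECs), taken by their symbols from a table of raw read counts for 15693 genes. They comprise 13 PEX genes, which build the organelle, and 23 genes for oxidation enzymes, membrane carriers, catalase, acyl-CoA thioesterases and the enzymes of ether lipid synthesis. All 36 were found in the table and all 36 passed the filter on low counts. Total RNA was sequenced from 3 *ACADSB*-/- libraries and 3 WT libraries. The *ACADSB*-/- cells are bMECs of a lactating Chinese Holstein cow in which *ACADSB* was edited with Cas9 and a guide RNA, delivered on a plasmid with a green fluorescent marker used for sorting. The WT cells are bMECs with the genotype control in the labels, called both negative control and wild type in the methods. *ACADSB* encodes a mitochondrial acyl-CoA dehydrogenase for short and branched chains. The methods describe a monoclonal knockout line grown from 1 sorted cell, the series text can be read as 3 knockout lines, and the RNA samples were described as pooled. Whether the 3 libraries of each genotype came from separate cultures is not stated in the sources used here. The p-values therefore measure library-to-library spread, possibly technical, and the edit and the history of a single sorted cell cannot be told apart.

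Peroxisomes are small organelles with a single membrane, found in nearly all cells. They shorten very long, branched and dicarboxylic fatty acids by β-oxidation, a cycle whose first enzyme passes electrons directly to oxygen and so makes hydrogen peroxide, which catalase breaks down. They also remove the methyl-branched phytanic acid by α-oxidation and carry out the first steps in the synthesis of ether lipids such as plasmalogens. Their enzymes are made in the cytosol and imported in folded form by the peroxins, the products of the PEX genes, and shortened fatty acids leave as carnitine esters or free acids for use in the mitochondria or in lipid synthesis.

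The libraries held 30550275 to 34983965 counts. CPM are counts scaled to a TMM-adjusted library total of 1000000. On the log2 CPM scale, libraries of the same genotype correlated at 0.991 to 0.993 and libraries of different genotypes at 0.950 to 0.956. The edited gene, *ACADSB*, had 9, 7 and 15 counts in the *ACADSB*-/- libraries, against 38, 34 and 20 counts in the WT libraries, which is −1.60 on the log2 scale (standard error, SE, 0.459). The luminal keratin and adhesion genes *KRT8*, *KRT18*, *KRT19*, *EPCAM* and *CDH1* summed to 4904 to 5408 CPM in *ACADSB*-/- and 6351 to 6695 CPM in WT libraries. *KRT8* and *KRT18*, which make up most of this sum, were lower, while *EPCAM* and *CDH1* were higher (log2 fold changes 0.60 and 0.42). The basal *KRT5*, *KRT14*, *KRT17* and *TP63* summed to 3854 to 4144 CPM in *ACADSB*-/- and 3597 to 3804 CPM in WT libraries, nearly all from *KRT5*, which was higher. *KRT17* fell by 2.99 on the log2 scale and *KRT14* by 0.92, and *TP63* did not pass the test. None of 5 milk protein genes had a row in the count table, and the highest FPKM of any of them was 0.0417, for *LALBA*. Of 7 fibroblast markers 6 were counted, with *COL1A2* at 0 in the *ACADSB*-/- libraries. They summed to 1286 to 1323 CPM in *ACADSB*-/- and 1103 to 1168 CPM in WT libraries, nearly all from *DCN*. *DCN* was higher (log2 fold change 0.21) and *COL3A1* lower (−1.17), while *COL1A1* and *PDGFRA* did not pass the test. *FAP* had 0, 1 and 0 counts in *ACADSB*-/- against 9, 8 and 1 counts in WT libraries. The 3 of 5 adipocyte markers counted (*ADIPOQ* and *FABP4* had no row) summed to 1.73 to 2.83 CPM in *ACADSB*-/- and 3.38 to 3.68 CPM in WT libraries. For 2 of 3 endothelial markers (*CDH5* had no row) the sums were 3.36 to 5.44 CPM in *ACADSB*-/- and 2.80 to 3.91 CPM in WT libraries, and for 2 of 4 immune markers (*PTPRC* and *CD3E* had no row) 13.9 to 16.0 CPM in *ACADSB*-/- and 17.3 to 18.6 CPM in WT libraries. The endothelial markers counted went opposite ways, with *VWF* higher and *PECAM1* lower in *ACADSB*-/- libraries. The part of these markers in the results below was not tested. In bulk RNA, fewer cells of a kind and less RNA per cell cannot be told apart.

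The peroxisomal genes moved in both directions. *FAR1* and *AGPS* of ether lipid synthesis, the membrane transporter *ABCD3*, the 2-hydroxyacyl-CoA lyase *HACL1* and the β-oxidation proteins *HSD17B4* and *SCP2* were higher in *ACADSB*-/- bMECs, by 1.42-fold (*HSD17B4*) to 2.37-fold (*HACL1*). Catalase, the thioesterase *ACOT8*, the racemase *AMACR*, the reductase *DECR2* and the carrier *SLC25A17* were lower, at 0.608 (*CAT*) to 0.725 (*SLC25A17*) of the WT level. Each of these 11 genes kept its direction and its call under all 17 alternative fits at the same threshold, and with a minimum of 2-fold added to the threshold only *HACL1* and *FAR1* of them were called. Of the 36 genes, 9 were higher and 11 were lower, while 16 missed the threshold of 0.05 for the adjusted p (edgeR's quasi-likelihood test, Benjamini-Hochberg adjustment over all 13720 tested genes). This is 55.6% of the peroxisomal genes, beside 58.2% of all tested genes called in either direction, 29.7% higher and 28.6% lower. The share of called genes was thus close to that of the whole table. The median log2 fold change was 0.01 for the 36 genes and 0.00 for all tested genes.
At 2-fold or more, 3 were higher (*ACOXL*, *HACL1* and *FAR1*) and 1 was lower (*ACOT4*), beside 5.3% of all tested genes higher, 4.92% lower and 10.2% in either direction. The libraries of both groups did not overlap for 24 of the 36 genes, 12 in each direction, beside 31.9% of all tested genes higher without overlap, 31.7% lower and 63.6% in either direction. The 36 genes took 0.140% ± 0.000897 of all counts in *ACADSB*-/- and 0.127% ± 0.00213 in WT libraries (SD, n = 3). Leaving out each of the 6 libraries in turn gave 8 to 9 higher and 8 to 10 lower genes.

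**Figure D1:**
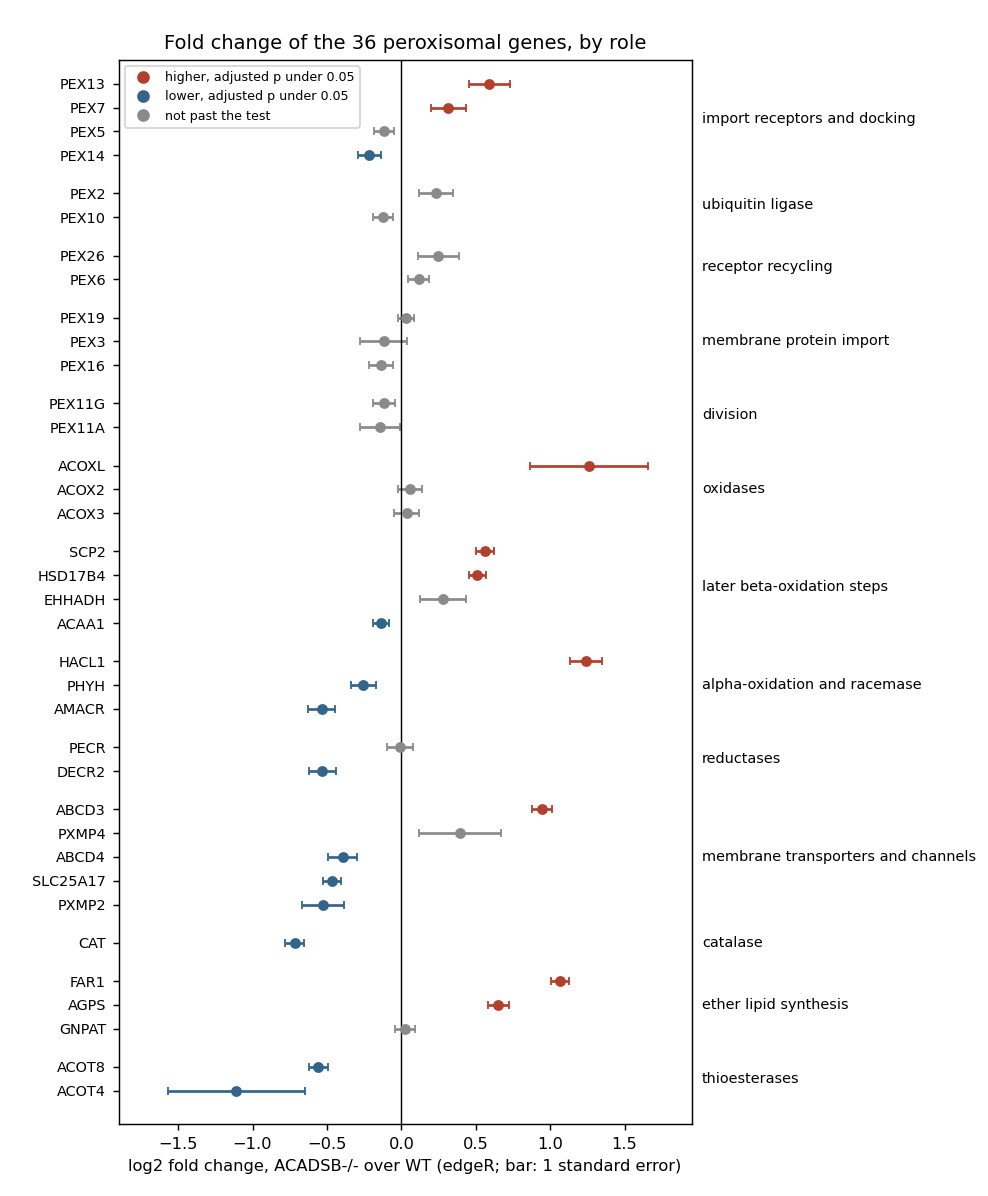
The log2 fold change of *ACADSB*-/- over WT (x axis) is drawn for each of the 36 genes, grouped by role, with bars of 1 standard error and colours for genes called higher, called lower or not called. *FAR1*, *AGPS*, *ABCD3*, *HACL1*, *HSD17B4* and *SCP2* lie to the right of 0, *CAT*, *ACOT8*, *AMACR*, *DECR2* and *SLC25A17* to the left, and most PEX genes within 0.25 of 0.

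Per length, the 36 transcripts spanned from 0.256 FPKM for *ACOXL* to 71.8 FPKM for *ACAA1* (mean over all 6 libraries). FPKM are the authors' values, reads scaled to the gene model length and the library size. *ACAA1*, the 3-ketoacyl-CoA thiolase of peroxisomes, had 69.3 ± 2.03 FPKM in *ACADSB*-/- and 74.4 ± 3.44 FPKM in WT bMECs (SD, n = 3). *PEX19*, the chaperone of new peroxisomal membrane proteins, came next with 53.2 ± 1.72 FPKM in *ACADSB*-/- and 50.9 ± 1.28 FPKM in WT cells. These were the only genes of the 36 with a mean of at least 50 FPKM. A further 20 lay between 10 and 50 FPKM, 12 between 1 and 10, and *ACOT4* and *ACOXL* under 1. The order changed with the group. *FAR1* had 46.6 ± 1.91 FPKM in *ACADSB*-/- cells and stood above *HSD17B4* there (39.9 ± 1.64), while in WT cells it had 21.7 ± 1.84 and stood below *HSD17B4* (27.4 ± 1.03). *ABCD3* had 21.5 ± 1.15 FPKM in *ACADSB*-/- cells, above *CAT* with 17.1 ± 0.205, and 10.9 ± 0.839 FPKM in WT cells, where *CAT* had 27.4 ± 0.826. Neighbours such as *SCP2* and *PEX19* in *ACADSB*-/- cells (52.5 ± 0.628 and 53.2 ± 1.72) or *FAR1* and *GNPAT* in WT cells (21.7 ± 1.84 and 22.9 ± 1.63) did not differ beyond their spread.

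**Figure D2:**
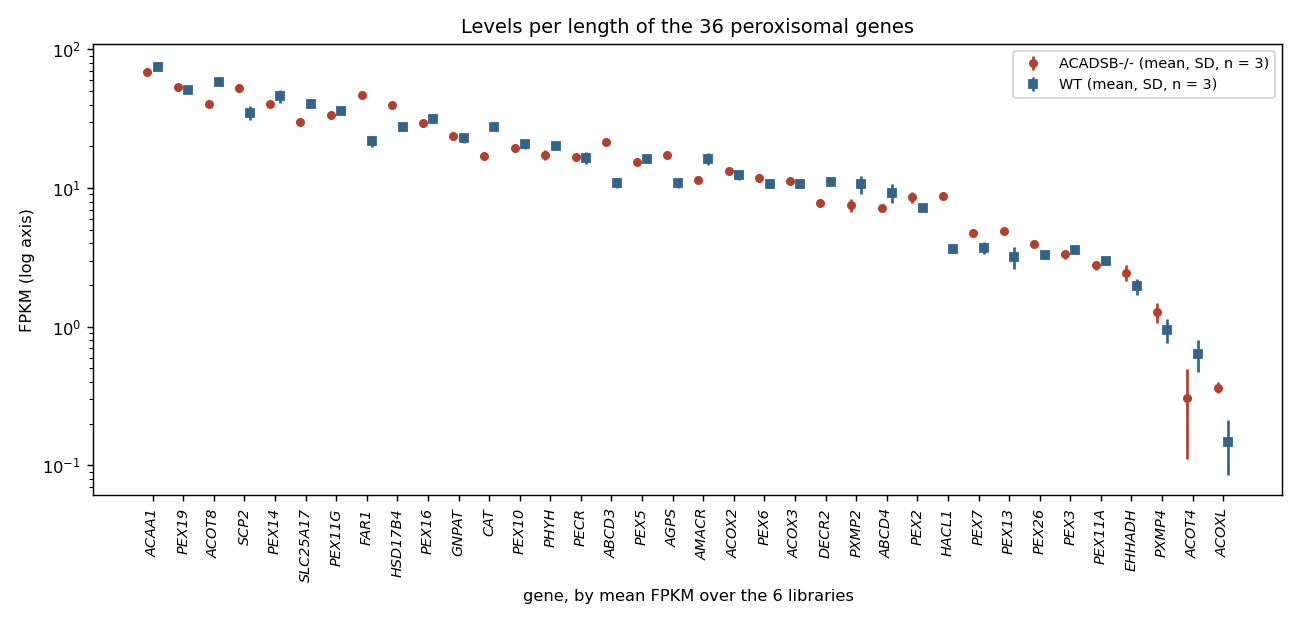
Mean FPKM (log axis) of the 36 genes with the SD over 3 libraries, *ACADSB*-/- as circles and WT as squares, ordered by the mean over all 6 libraries. The groups stand apart for *FAR1* (46.6 FPKM in *ACADSB*-/- and 21.7 FPKM in WT), *ABCD3* and *HACL1* and lie close together for *PEX19*, *PECR* and *ACOX3*.

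The fold changes of most PEX genes were small, and *PEX13* and *PEX7* were higher and *PEX14* lower in *ACADSB*-/- bMECs. Of the 13, 2 were higher, 1 was lower and 10 did not pass the test, and their median absolute log2 fold change was 0.14. The median was 0.53 for the other 23 genes, of which 7 were higher and 10 lower and 6 did not pass the test, and 0.31 for all tested genes. Of all tested genes, 29.7% were called higher and 28.6% lower. Called with an absolute log2 change of at least 0.5 were 1 of the 13 PEX genes (*PEX13*) and 13 of the other 23. The share of all tested genes at that size was not counted. These medians and counts are a description, with no test between both groups of genes.
*PEX13* and *PEX14* form the docking complex on the peroxisomal membrane where the loaded import receptors bind. *PEX13* had 10.7, 10.1 and 9.84 CPM in the *ACADSB*-/- libraries, against 5.70, 8.04 and 6.61 CPM in the WT libraries. Every *ACADSB*-/- library was above every WT library, and the log2 fold change was 0.59 (SE 0.137, edgeR adjusted p = 4.7e-04). *PEX14* had 37.0, 37.8 and 36.7 CPM in *ACADSB*-/- against 43.2, 37.8 and 48.3 CPM in WT libraries, with WT replicate 2 level with the *ACADSB*-/- libraries. It fell by 0.21 (SE 0.0785, edgeR adjusted p = 0.020), and this call ended without WT replicate 3 (−0.13, adjusted p = 0.205), without *ACADSB*-/- replicate 1 (adjusted p = 0.0582) or replicate 3 (0.0687), and in other settings (0.000761 to 0.30 over all). Without WT replicate 2 the value was −0.31.
The import receptors themselves were *PEX5*, which binds most matrix enzymes by their last residues, and *PEX7*, which binds the few with a signal near the start. *PEX7* had 11.6, 12.5 and 12.9 CPM in the *ACADSB*-/- libraries, against 9.78, 10.9 and 9.09 CPM in the WT libraries, without overlap. It rose by 0.32 (log2, SE 0.116, edgeR adjusted p = 0.021). That call ended without *ACADSB*-/- replicate 2 (adjusted p = 0.0548) or replicate 3 (0.0690) or WT replicate 3 (0.109) and with the trend of fold changes with gene length removed (0.0710), with a range of 0.0105 to 0.109 over all settings. *PEX5* had −0.12 (SE 0.0683, adjusted p = 0.144), and with the length trend removed it passed the test with −0.23 (adjusted p = 0.00354).

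The ubiquitin ligase and the recycling machinery of the receptors showed small values. *PEX2* and *PEX10* are subunits of the ligase that marks *PEX5* for removal from the membrane. *PEX2* had 13.7, 12.4 and 11.4 CPM in the *ACADSB*-/- libraries, against 10.1, 11.3 and 10.5 CPM in the WT libraries, groups that nearly touched, with a log2 fold change of 0.23 (adjusted p = 0.083). It passed the test in 4 of 17 alternatives, among them the fit without *ACADSB*-/- replicate 3 (0.30, adjusted p = 0.0471). *PEX10* had −0.12 (adjusted p = 0.131). *PEX6* is a subunit of the ATPase that pulls *PEX5* out of the membrane, and *PEX26* anchors that ATPase. *PEX6* had 0.12 (SE 0.0695) and *PEX26* 0.25 (SE 0.136), and neither passed the test, although *PEX26* did in the 3 fits of limma on FPKM (adjusted p = 0.0355 to 0.0430).
*PEX3*, *PEX16* and *PEX19* insert proteins into the peroxisomal membrane and are needed for peroxisomes to form at all. *PEX19* had 99.3, 106 and 102 CPM in the *ACADSB*-/- libraries, against 102, 96.7 and 103 CPM in the WT libraries, and the groups overlapped. Its log2 fold change was 0.03 with an SE of 0.0543. *PEX3* had −0.12 (SE 0.155) and *PEX16* −0.14 (SE 0.0791). *PEX11A* and *PEX11G*, members of the family that elongates the membrane before division, had −0.14 (SE 0.134) and −0.12 (SE 0.0746). All 5 genes overlapped between the groups.

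Entry of substrates and cofactors is the task of the membrane proteins. *ABCD3* is an ABC transporter that brings branched and dicarboxylic acyl-CoA into the peroxisome. The annotation of the deposited table places it on the minus strand of chromosome 3, from 49366394 to 49455791, and the sources used here do not name the genome build of this and the positions below. *ABCD3* had 74.9, 69.4 and 75.5 CPM in the *ACADSB*-/- libraries, against 38.7, 40.3 and 35.2 CPM in the WT libraries. The lowest *ACADSB*-/- library was far above the highest WT library. The gene rose by 0.94 (log2, 1.92-fold, SE 0.0674, edgeR adjusted p = 4.7e-13).
*SLC25A17*, a carrier for coenzyme A, FAD and NAD in the same membrane, lies on chromosome 5 from 112895056 to 112937626. It had 50.3, 49.6 and 49.2 CPM in the *ACADSB*-/- libraries, against 69.7, 68.6 and 67.5 CPM in the WT libraries. The spread within each group was small beside the gap between them, and *SLC25A17* fell by 0.46 (SE 0.0611, adjusted p = 1.4e-07). *PXMP2*, a channel for small metabolites, had 7.25, 5.90 and 6.47 CPM in *ACADSB*-/- against 8.26, 8.90 and 11.2 CPM in WT libraries and fell by 0.53 (SE 0.142, adjusted p = 0.0022). *ABCD4*, related in sequence to *ABCD3* but known as a vitamin B12 transporter of lysosomes, had 20.1, 22.6 and 22.1 CPM in *ACADSB*-/- against 32.9, 24.2 and 27.9 CPM in WT libraries. It fell by 0.39 (SE 0.0974, adjusted p = 0.0011), with WT replicate 1 the highest library (−0.27 without it), and missed the threshold with limma on unfiltered FPKM (adjusted p = 0.0612). *PXMP4*, a membrane protein of unsettled function, had 0.39 (SE 0.276, adjusted p = 0.229) with overlapping libraries.

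**Figure D3:**
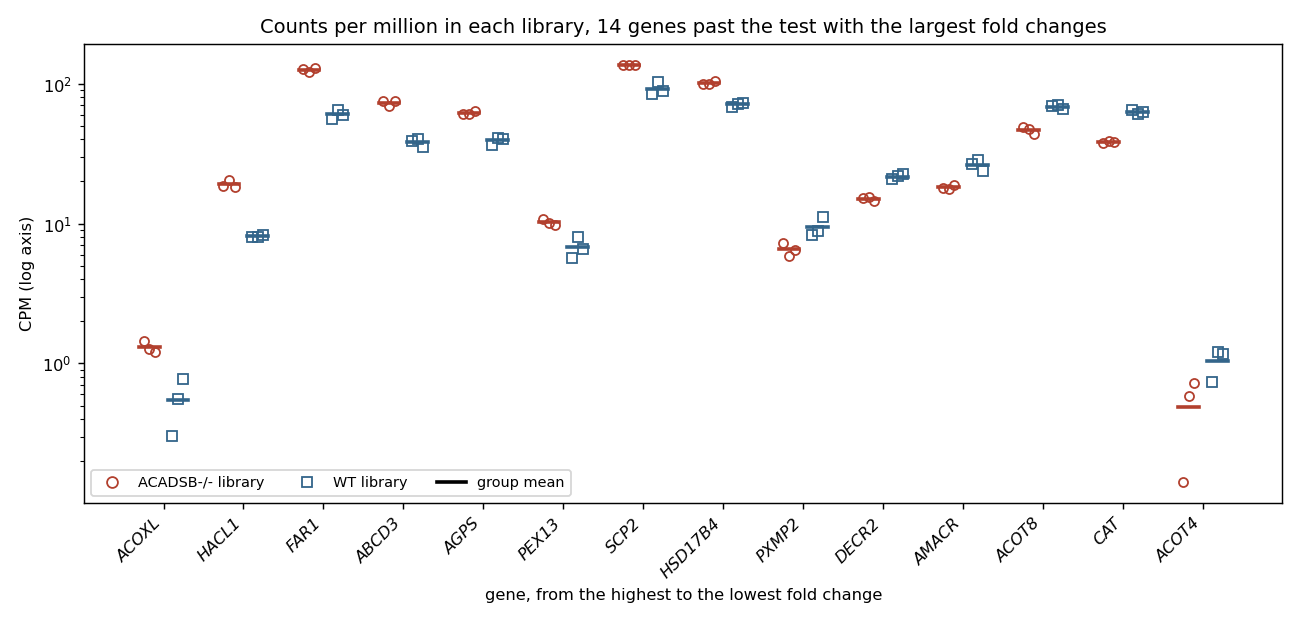
CPM (log axis) of the 14 genes past the test with the largest fold changes, from the highest to the lowest, with a symbol for each library and a bar at the group mean. The groups do not overlap for any of the 14, and *ACADSB*-/- replicate 1 stands far below the others for *ACOT4* (0.142 CPM).

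In peroxisomal β-oxidation an acyl-CoA oxidase acts first. *ACOX2*, the oxidase of branched chains and bile acid precursors, had 33.0, 33.5 and 30.3 CPM in the *ACADSB*-/- libraries, against 33.3, 28.1 and 31.4 CPM in the WT libraries. The groups overlapped and the log2 fold change was 0.06 (SE 0.0810, adjusted p = 0.543). *ACOX3*, a further oxidase of branched chains, had 0.04 (SE 0.0837). *ACOXL*, a protein related to these oxidases, had 51, 39 and 38 counts in the *ACADSB*-/- libraries, against 10, 17 and 24 counts in the WT libraries. All were low counts, but without overlap, and *ACOXL* rose by 1.26 (log2, 2.40-fold, SE 0.394, edgeR adjusted p = 0.0071; 0.00404 to 0.0479 over all settings that tested it).
The D-bifunctional protein *HSD17B4* carries out the second and the third step. *HSD17B4* lies on chromosome 7 from 35802055 to 35902833, and had 99.5, 99.2 and 105 CPM in the *ACADSB*-/- libraries, against 67.8, 72.1 and 73.2 CPM in the WT libraries. It rose by 0.51 (1.42-fold, SE 0.0567, adjusted p = 6.4e-09). *EHHADH*, the L-bifunctional protein for the same steps, was at a far lower level per length (2.45 ± 0.323 FPKM in *ACADSB*-/- and 1.96 ± 0.264 FPKM in WT cells) and had 0.28 (SE 0.155, adjusted p = 0.123) with overlapping libraries.
The last step is thiolytic cleavage, by *ACAA1* or by the thiolase form of *SCP2*, a gene that also encodes the lipid carrier sterol carrier protein. *SCP2* lies on chromosome 3 from 94189820 to 94311987. It had 136, 136 and 136 CPM in the *ACADSB*-/- libraries, against 84.4, 104 and 88.7 CPM in the WT libraries. The *ACADSB*-/- libraries were nearly identical (SD 0.337 CPM), and *SCP2* rose by 0.56 (1.48-fold, SE 0.0614, adjusted p = 1.0e-08). *ACAA1* had 110, 113 and 104 CPM in the *ACADSB*-/- libraries, against 126, 117 and 117 CPM in the WT libraries, and fell by 0.14 (SE 0.0542, adjusted p = 0.032). The call of *ACAA1* ended without *ACADSB*-/- replicate 1 (adjusted p = 0.0756) or replicate 3 (0.134) or WT replicate 1 (0.159) and in other settings (0.0117 to 0.159 over all). Counts per gene do not separate the forms made from *SCP2*.

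The methyl-branched phytanic acid first passes through α-oxidation. *PHYH* hydroxylates phytanoyl-CoA, *HACL1* then cleaves the product, and *AMACR* turns the resulting branched acyl-CoA into the mirror form that β-oxidation accepts. The 3 genes differed in direction. *HACL1*, on chromosome 1 from 154945657 to 154984423, had 18.6, 20.5 and 18.4 CPM in the *ACADSB*-/- libraries, against 8.01, 7.98 and 8.32 CPM in the WT libraries. The groups were far apart and *HACL1* rose by 1.24 (log2, 2.37-fold, SE 0.107, edgeR adjusted p = 3.3e-11).
*PHYH* had 25.1, 24.2 and 21.1 CPM in the *ACADSB*-/- libraries, against 28.1, 27.3 and 28.7 CPM in the WT libraries, without overlap. It fell by 0.25 (SE 0.0855, adjusted p = 0.012), and without *ACADSB*-/- replicate 3, the lowest library, it had −0.18 (adjusted p = 0.0843). *AMACR* had 17.9, 17.5 and 18.9 CPM in *ACADSB*-/- against 26.4, 28.4 and 23.9 CPM in WT libraries, and fell by 0.53 (SE 0.0902, adjusted p = 8.4e-06). *HACL1* shares 421 bases of its span with *BTD* on the other strand, a gene with a log2 fold change of −0.25, and the sources used here do not say whether the counting used the strand.

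The reductases act on fatty acids with double bonds. *DECR2*, the peroxisomal dienoyl-CoA reductase, had 15.2, 15.4 and 14.4 CPM in the *ACADSB*-/- libraries, against 20.7, 21.8 and 22.6 CPM in the WT libraries. The groups were well apart, with *DECR2* at 0.692 of its WT level. *PECR*, a trans-2-enoyl-CoA reductase, had 24.2, 22.6 and 25.2 CPM in *ACADSB*-/- against 25.0, 25.7 and 21.9 CPM in WT libraries, with full overlap and a log2 fold change of −0.01 (SE 0.0880).
Catalase (*CAT*) breaks down the hydrogen peroxide that the oxidases make. It lies on chromosome 15 from 66090927 to 66126874, and had 37.9, 39.0 and 38.1 CPM in the *ACADSB*-/- libraries, against 65.0, 61.1 and 62.8 CPM in the WT libraries. The lowest WT library was far above the highest *ACADSB*-/- library. *CAT* fell by 0.72 (log2, 0.608 of the WT level, SE 0.0650, edgeR adjusted p = 9.6e-11).
Thioesterases release free acids from acyl-CoA. *ACOT8*, which acts on many chain lengths, had 48.7, 47.3 and 43.6 CPM in the *ACADSB*-/- libraries, against 69.2, 70.7 and 65.7 CPM in the WT libraries. It fell by 0.56 (SE 0.0649, adjusted p = 1.5e-08). *ACOT8* shares 1028 bases of its span with *SNX21* on the other strand, which fell by 0.60 at a mean of 275 counts, beside 1835 counts for *ACOT8*. *ACOT4*, an acyl-CoA thioesterase with close relatives in the genome that may share reads with it, had 5, 18 and 23 counts in the *ACADSB*-/- libraries, against 24, 37 and 36 counts in the WT libraries. The groups nearly touched, and *ACOT4* fell by 1.11 (SE 0.458, adjusted p = 0.039). *ACADSB*-/- replicate 1 was the lowest, and without it the log2 fold change was −0.65 (adjusted p = 0.242). The call of *ACOT4* also ended without *ACADSB*-/- replicate 2 (0.0550) or WT replicate 2 (0.12) or 3 (0.115) and with DESeq2 (0.0584), with 0.0209 to 0.242 over all settings that tested it.

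Ether lipid synthesis begins inside the peroxisome with *GNPAT*, which puts a fatty acid on dihydroxyacetone phosphate, and *AGPS*, which exchanges that fatty acid for a fatty alcohol. *FAR1*, bound to the outside of the peroxisomal membrane, makes the fatty alcohol and is the step that limits the pathway. *FAR1* lies on chromosome 15 from 39718681 to 39794804, and had 127, 122 and 130 CPM in the *ACADSB*-/- libraries, against 55.5, 65.2 and 60.01 CPM in the WT libraries. Each *ACADSB*-/- library was far above each WT library, and *FAR1* rose by 1.07 (log2, 2.09-fold, SE 0.0602, edgeR adjusted p = 1.9e-15).
*AGPS*, on chromosome 2 from 19414026 to 19508034, had 60.5, 60.6 and 64.1 CPM in the *ACADSB*-/- libraries, against 36.5, 41.2 and 40.1 CPM in the WT libraries. It rose by 0.65 (1.57-fold, SE 0.0677, adjusted p = 1.6e-09). *GNPAT* had 54.3, 51.3 and 55.8 CPM in *ACADSB*-/- against 48.8, 55.8 and 54.5 CPM in WT libraries, with overlapping groups and a log2 fold change of 0.02 (SE 0.0676, adjusted p = 0.793). A second row, *AGPS.1*, is a stretch of 271 bases on the same strand outside the main *AGPS* span, with 72, 59 and 77 counts in *ACADSB*-/- and 46, 52 and 38 counts in WT libraries, and 0.56 (adjusted p = 0.0729) on the log2 scale. Reads may be split between both rows.

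The ratio of the counts of a pair of genes within a library does not depend on how libraries are scaled. The pairs were chosen after their values were seen and are given as a description. *FAR1* over *GNPAT* was 2.33, 2.37 and 2.32 in the *ACADSB*-/- libraries, against 1.14, 1.17 and 1.1 in the WT libraries. *AGPS* over *GNPAT* was 1.11, 1.18 and 1.15 in *ACADSB*-/- against 0.748, 0.739 and 0.737. in WT libraries Both ratios were higher in every *ACADSB*-/- library, and *FAR1* over *AGPS* was as well (2.04 ± 0.0486 in *ACADSB*-/- and 1.53 ± 0.0438 in WT libraries, SD, n = 3), so the 3 genes of ether lipid synthesis changed by unequal amounts.
*HACL1* over *PHYH* was 0.742, 0.848 and 0.873 in the *ACADSB*-/- libraries, against 0.286, 0.292 and 0.290 in the WT libraries. *ABCD3* over *SLC25A17* was 1.49, 1.40 and 1.54 in *ACADSB*-/- against 0.555, 0.588 and 0.522 in WT libraries. These ratios of raw counts also depend on gene length. Per length, *SLC25A17* stayed above *ABCD3* in *ACADSB*-/- cells (29.8 and 21.5 FPKM) and in WT cells (40.1 and 10.9 FPKM). *HSD17B4* over *CAT* was 2.62, 2.55 and 2.75 in *ACADSB*-/- against 1.04, 1.18 and 1.17. in WT libraries *HSD17B4* over *EHHADH*, by contrast, overlapped between the groups (15.4 ± 1.53 in *ACADSB*-/- and 13.2 ± 1.5 in WT libraries), with no test of the ratio.

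**Figure D4:**
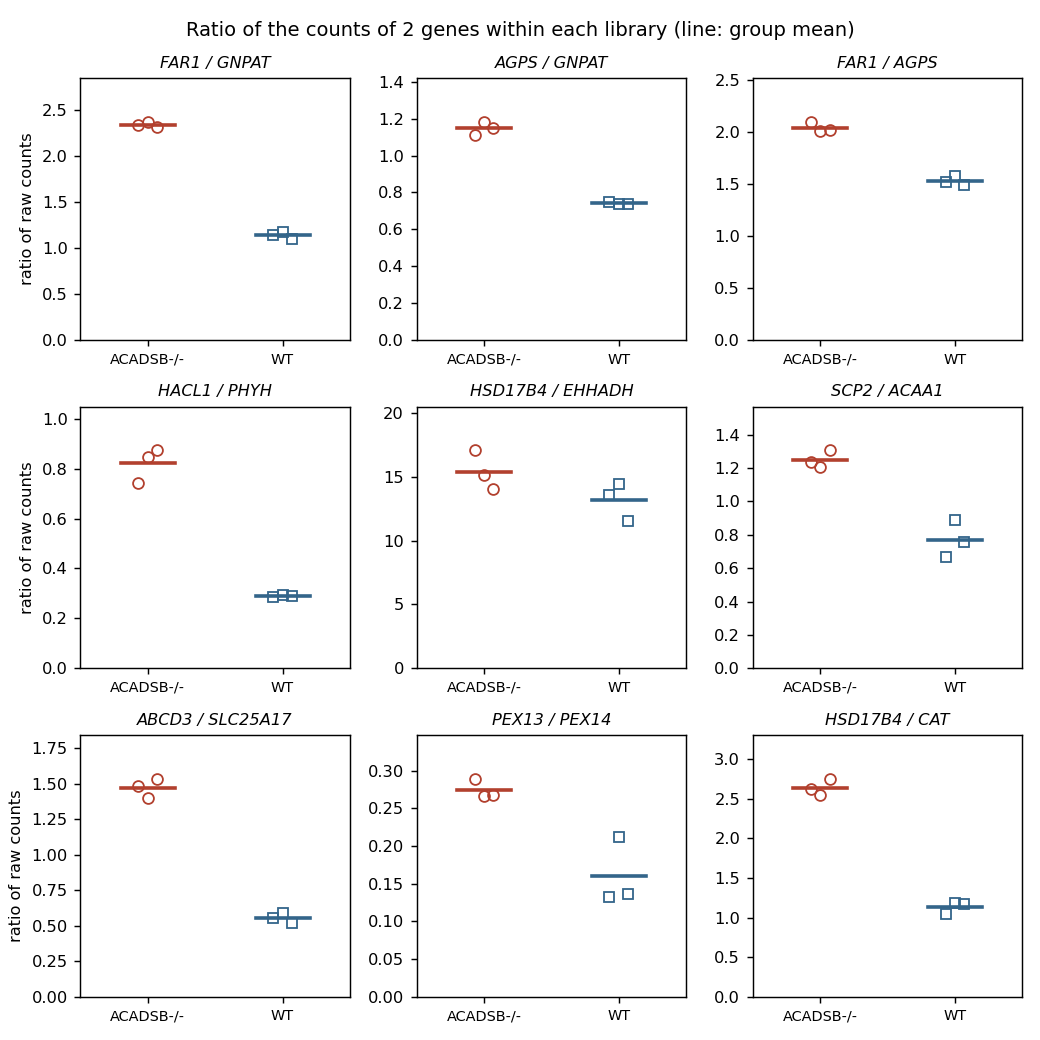
Ratio of the raw counts of 2 genes in each library (y axis, from 0), *ACADSB*-/- left and WT right, with a line at the group mean. The groups stand apart for *FAR1* over *GNPAT* (2.34 in *ACADSB*-/- and 1.14 in WT), *ABCD3* over *SLC25A17* (1.47 in *ACADSB*-/- and 0.555 in WT) and *HACL1* over *PHYH* (0.821 in *ACADSB*-/- and 0.289 in WT) and overlap for *HSD17B4* over *EHHADH*.

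Other genes of the peroxisome, in a list of 61 from textbook knowledge, were higher more often than lower. The count table held 50 of them and the filter kept 45. In *ACADSB*-/- bMECs 21 of the 45 were higher (46.7%, beside 29.7% of all tested genes), 5 were lower (11.1%, beside 28.6%) and 19 did not pass the test. Their median log2 fold change was 0.14. The list was chosen with earlier results of these data known, so these shares are a description, with no test. The largest values were those of *DAO*, the D-amino acid oxidase, and *XDH*, xanthine dehydrogenase, which is also known from the milk fat globule membrane. *DAO* had 136, 130 and 153 counts in the *ACADSB*-/- libraries, against 48, 41 and 28 counts in the WT libraries, and rose by 1.79 (SE 0.230). *XDH* had 75.5, 83.1 and 82.6 CPM in *ACADSB*-/- against 33.5, 35.6 and 32.7 CPM in WT libraries and rose by 1.24 (SE 0.0662).
*CRAT*, the carnitine acetyltransferase that hands short acyl groups to carnitine in peroxisomes and mitochondria, had 310, 312 and 324 CPM in the *ACADSB*-/- libraries, against 170, 153 and 171 CPM in the WT libraries. It rose by 0.94 (SE 0.0512, adjusted p = 8.6e-16), while *CROT*, its counterpart for medium chains, had 0.17 (SE 0.141, adjusted p = 0.308). *ACBD5*, which tethers peroxisomes to the endoplasmic reticulum and takes part in the supply of very long chains, rose by 0.74.
The protease *LONP2* rose by 0.61 and the ubiquitin ligase *TRIM37* by 0.59. *IDI1*, of isoprenoid synthesis, rose by 0.84, the glutathione transferase *MGST1* by 0.83 and the phospholipase *PNPLA8* by 0.74. *MLYCD*, malonyl-CoA decarboxylase, had 0.73 (SE 0.258, adjusted p = 0.016) with overlapping libraries, a call that ended without *ACADSB*-/- replicate 1 (adjusted p = 0.0695) or 2 (0.118) or WT replicate 3 (0.0837) and with limma on unfiltered FPKM (0.103), with 0.00254 to 0.118 over all settings.
Among the lower genes, *MPV17*, an inner mitochondrial membrane protein once assigned to peroxisomes, had 36.7, 37.8 and 37.5 CPM in the *ACADSB*-/- libraries, against 82.4, 81.3 and 81.6 CPM in the WT libraries and fell by 1.13 (SE 0.0617). *EPHX2*, the soluble epoxide hydrolase, fell by 1.04 (64, 51 and 54 in *ACADSB*-/- against 135, 100 and 102 counts in WT libraries). Several genes of the list are also known from other compartments, among them *XDH* outside peroxisomes and *CRAT*, *MPV17*, *MGST1* and *MLYCD* in mitochondria. Counts per gene do not show in which compartment a product acts, so the values of these genes are not particular to peroxisomes. *ABCD2*, an ABC transporter of the peroxisomal membrane, and *FAR2*, the second fatty acyl-CoA reductase, were listed at 0 FPKM in all 6 libraries.

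The fold changes of the peroxisomal genes moved with the length of the gene model in the deposited table. The 9 higher genes had a median length of 2649 bases (2114 to 3630) and the 11 lower genes one of 1595 bases (876 to 3027). Over all tested genes the medians were 2758 bases for higher and 1908 bases for lower genes. Across the 36 genes, Pearson's r of the log2 fold change with log2 length was 0.52 and Spearman's rho 0.54, beside 0.07 and 0.18 across all 13720 tested genes. These are values across genes of the same libraries, not across samples. The median log2 fold change of all tested genes was −0.12 in the shortest of 4 equal bins of gene models and 0.13 in the longest.
The trend across all tested genes was removed library by library, an alternative chosen after the data were seen. With it removed, 9 of the 36 genes were again higher and 10 lower. The trend among the 36 genes was not fitted on its own. *FAR1* then had 0.98, *ABCD3* 0.82, *AGPS* 0.52, *HACL1* 1.22, *CAT* −0.75 and *ACOT8* −0.48, each with its call. *PEX7*, *PEX14* and *ACAA1* lost theirs, and *PEX2* and *PEX5* gained one.

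**Figure D5:**
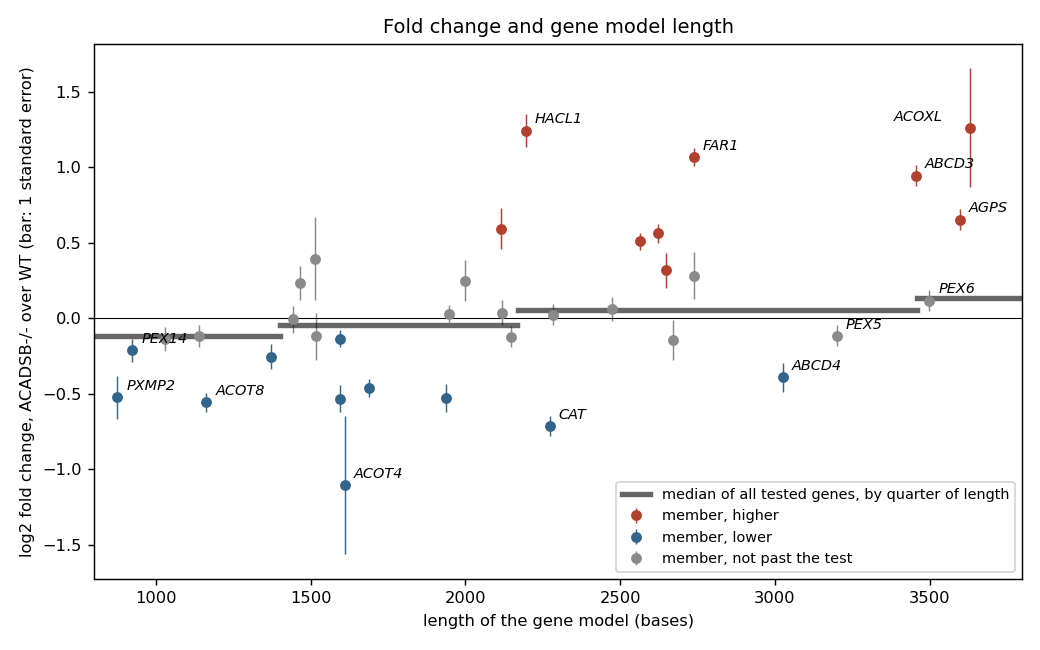
The log2 fold change of *ACADSB*-/- over WT (y axis, bars of 1 standard error) against the length of the gene model in bases for the 36 genes, with dark lines at the median of all tested genes in 4 equal bins of length. The higher genes lie at 2114 bases and above, most of the lower genes below, and the lines run from −0.12 to 0.13.

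The 36 genes lie on 20 chromosomes, with at most 3 on any of them (*SCP2*, *ABCD3* and *PEX19* on chromosome 3, for example). Genes of the same chromosome could differ in direction. On chromosome 15 *FAR1* rose while *CAT* fell, and on chromosome 13 *ACOT8* and *PHYH* fell while *PXMP4* did not pass the test. The spans of 5 of the genes overlap another gene of the table on the other strand. Besides *HACL1* and *ACOT8* these are *ACOX3* (with *STX18*, 7104 bases), *PECR* (whose whole span of 48054 bases lies within that of *TMEM169*) and *SLC25A17* (with an uncharacterised gene of 10.2 counts on average).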

How the data were processed

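Total RNA of 3 *ACADSB*-/- and 3 WT libraries was sequenced, with group and replicate number taken from the sample titles. The authors removed reads with adapters, unknown or low-quality bases, aligned the rest and deposited raw counts per gene, and a table of FPKM. For the aligner, counter, build, annotation and strand setting nothing is given in the sources used here, beyond Bismark 0.12.5, listed without a role in the processing notes. The gene model lengths are in bases, in a column the authors deposited. The deposited fold changes, p-values and FDR are the authors' own comparison and were not used. Among the FPKM columns, 3 match no sample here and were not used.

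Counts were tested with edgeR 4.0.16 in R 4.3.3: filterByExpr (minimum count 10, total 15) kept 13720 of 15693 genes, TMM factors were 0.978 to 1.02, and the quasi-likelihood fit was robust, with condition alone. A gene was called at a Benjamini-Hochberg adjusted p under 0.05. The standard error is the absolute log2 fold change over the square root of F. CPM use TMM-scaled totals. The study names EB-Seq, which was not run. DESeq2 1.42.0 and limma 3.58.1 on log2(FPKM + 1) were alternatives. Depth was 30550275 to 34983965 counts, and the biological coefficient of variation 6.64%. The script was tested on simulated data.

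The 36 genes, the list of 61 and the tests were chosen with earlier results of these data known. Values per library are given in full for the 14 called members with the largest absolute log2 fold change and for others the text refers to, and of the list of 61 the 10 called genes with the largest change are named. *CROT*, *LONP2*, *TRIM37*, *ABCD2* and *FAR2* were named after their values were seen. No sequence is shown, because no sequence table was used. The count table has 160 names with a numbered copy suffix.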

Additional observations from a re-analysis of the deposited data

How the results depend on the processing

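Of the 20 called members, 14 kept their direction and call under every alternative fit that tested them, with no minimum fold, and 13 of the 16 others stayed outside the threshold. No member had its direction reversed among calls. On unfiltered log2(FPKM + 1), limma called 7 members lower. At 2-fold or more, 3 members were higher and 1 lower, 2 and 2 of the other peroxisomal genes, and 727 and 675 of all tested genes. Leaving out each library gave 8 to 9 higher and 8 to 10 lower members, 19 to 22 higher and 4 to 6 lower other peroxisomal genes, and 3709 to 4029 higher and 3562 to 4018 lower genes in all. The cause of these changes was not tested beyond the fold threshold itself. The replicate numbers did not pair the libraries (correlation of deviations −0.04, −0.03 and −0.02 for numbers 1, 2 and 3), and with the replicate block 9 members were higher and 11 lower, 4000 and 3806 of all genes. No scaling moved the median of all genes by over 0.1. The low counts of *ACOXL* and *ACOT4* limit their precision, and neither had a value in 3 of 17 alternatives, where a filter removed them.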

Other observations

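The deposited table holds a second row for *ACOX3*. *ACOX3.1*, a row of 766 bases on chromosome 6, had 283, 253 and 265 counts in the *ACADSB*-/- libraries, against 265, 232 and 302 counts in the WT libraries, with a log2 fold change of −0.05 (SE 0.133) beside 0.04 for *ACOX3* itself. Of the 61 other peroxisomal genes, 11 had no row in the count table, and 5 (*PEX5L*, *HAO2*, *HMGCLL1*, *ECH1* and *VNN1*) were too low to be tested, with 3, 3 and 6 counts of *PEX5L* in the *ACADSB*-/- libraries, against 2, 0 and 0 counts in the WT libraries.

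Genes for proteins that divide both peroxisomes and mitochondria had unlike values. *DNM1L*, the dynamin-related GTPase that cuts the membrane, had 102, 96.4 and 105 CPM in the *ACADSB*-/- libraries, against 78.9, 92.0 and 80.6 CPM in the WT libraries and rose by 0.27 (SE 0.0607, edgeR adjusted p = 3.0e-04). Its adaptor *FIS1* had 118, 113 and 103 CPM in *ACADSB*-/- against 131, 137 and 134 CPM in WT libraries and fell by 0.26 (SE 0.0556), a call lost with the length trend removed (−0.12, adjusted p = 0.0539). The adaptor *MFF* had 0.07 (adjusted p = 0.276), and with the length trend removed it passed the test with 0.18 (adjusted p = 0.00309). These genes were named after their values were seen.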
